A study of Mus musculus with 18 samples.

Results

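The 18 arrays of mouse retinal pigment epithelium (RPE) and choroid fell into 8 arrays with high and 10 arrays with low signal of rod photoreceptor genes. The arrays were chosen by measured values, the mean signal of 5 rod genes, and lie on the 2 sides of the widest gap in that mean. Each array held RNA of 1 biological replicate from male C57BL6/J mice, 2 months old per the labels, after an injection into the vitreous of 10 μg dexamethasone (DEX), 25 μg triamcinolone acetonide (TAA) or balanced salt solution (BSS) alone, in a volume of 1 μL. BSS was also the solvent of both steroids, so all 18 samples received it. Tissue was collected 7 or 30 days later, which gave 6 groups of 3 arrays, called replicates 1 to 3 here as in the labels. Per the methods, eyes were opened and the retina separated by dissection, and much of the choroid may have been discarded with the sclera at lysis. The 3 samples of best RNA quality out of 4 were hybridised in each group.

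The neural retina lies against the RPE, and the outer segments of rods and cones reach between the RPE villi. Rods are the most numerous neurons of the mouse retina, and their RNA for phototransduction is abundant and made in very few other places. Bipolar, amacrine, horizontal and ganglion cells lie further from the RPE than the photoreceptors, with ganglion cells on the far side, and Mueller glia span the whole depth of the retina. In RNA from bulk tissue, more cells of a type and more RNA per cell cannot be told apart.

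The 8 high rod arrays were DEX day 7 replicates 1 and 2, DEX day 30 replicate 3, TAA day 7 replicate 3, TAA day 30 replicates 1 and 2 and BSS day 30 replicates 1 and 3. They made up 3 of 6 DEX arrays, 3 of 6 TAA arrays and 2 of 6 BSS arrays, and 5 of 9 arrays of day 30 against 3 of 9 arrays of day 7. The BSS day 7 group held 0 high rod arrays, so 5 of the 6 groups held both kinds. All values were deposited as log2 signals with each probe set set to a median of 0 over the 18 arrays. They therefore hold differences between arrays and no level, and the size of a value says nothing of how abundant one gene is beside another.

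The rod score, the mean of Sag (the arrestin of rods), Gnat1 (the transducin alpha subunit of rods), Cnga1 (a subunit of the rod cGMP-gated channel), Pde6b (a subunit of rod phosphodiesterase) and Nrl (the transcription factor that sets rod fate), was 4.26 and 4.16 in BSS day 30 replicates 1 and 3, 4.02 in DEX day 30 replicate 3, 3.89 and 3.15 in TAA day 30 replicates 2 and 1, 2.71 in TAA day 7 replicate 3, and 2.26 and 1.93 in DEX day 7 replicates 2 and 1. The low rod arrays ran from -2.38 in TAA day 30 replicate 3 to 0.36 in DEX day 30 replicate 2. The gap between 1.93 and 0.36 was 1.57 wide on the log2 scale and the next widest gap was 0.83. The score also varied by more than 2 units within each class, and the high rod arrays of day 7 had lower scores than those of day 30. Cnga1 differed by 4.82 between the class means (3.54 ± 1.03, SD, n = 8, in high rod arrays and -1.28 ± 1.02, n = 10, in low rod arrays), Gnat1 by 4.59, Nrl by 4.58, Sag by 4.41 and Pde6b by 4.27. These 5 differences chose the classes and carry no test.

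**Figure D1:**
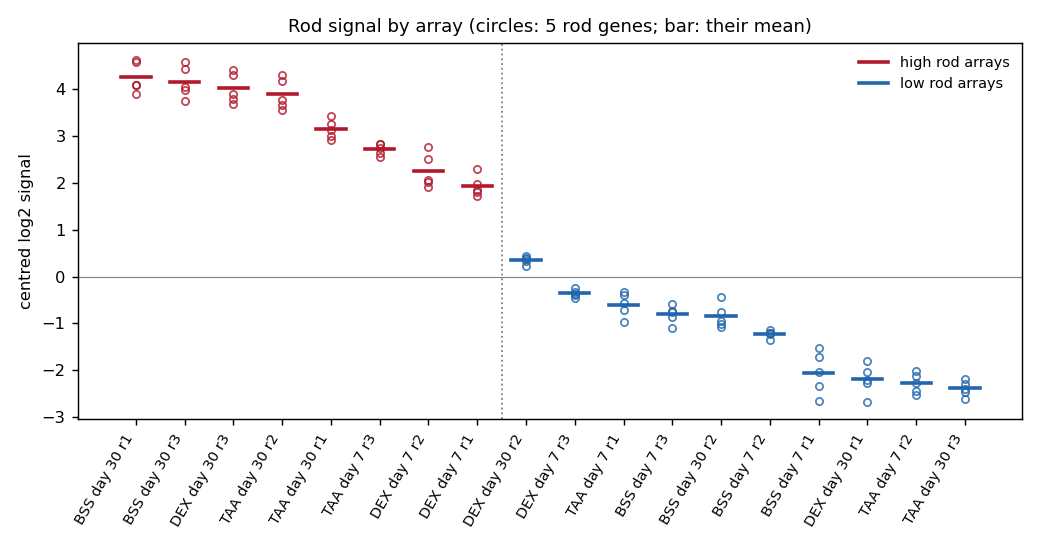
Centred log2 signal of 5 rod genes (circles) and their mean, the rod score (bars), on each array, with the 8 high rod arrays left of the dotted line and the 10 low rod arrays right of it. The score falls from 4.26 in BSS day 30 r1 to 1.93 in DEX day 7 r1 on the left, and starts at 0.36 in DEX day 30 r2 on the right.

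RNA quality moved with the classes. The 5′ probe sets of Actb and Gapdh minus their 3′ probe sets, a measure that drops when RNA is broken or copied short, lay between -0.12 and 0.50 (median 0.115) in high rod arrays and between -0.94 and 0.42 (median -0.30) in low rod arrays. All 5 arrays below -0.5 were low rod arrays, with rod scores of -2.38 to -0.81, and the other 5 low rod arrays, at -0.05 to 0.42, had rod scores of -2.27 to 0.36. The spread of values was also wider in the high rod arrays, with an SD over all probe sets of 0.206 to 0.416 against 0.192 to 0.294 in low rod arrays. The part of RNA quality in the differences below was not tested, and for some genes and lists the value without the 5 arrays of weak 5′ signal is given beside it.

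Many genes were higher and very few were clearly lower when the rod signal was high. Of 18194 genes, 351 (1.93%) had all 8 high rod arrays above all 10 low rod arrays, and 14 (0.0769%) had all 8 below. A mean difference of 2-fold or more was reached by 257 genes (1.41%) upward and by 0 genes (0.0%) downward. By sign alone the balance was the other way: the mean was higher in high rod arrays for 6159 genes (33.9%) and lower for 12035 (66.1%), with a median over all genes of -0.05 and a range from -0.81 to 4.82 on the log2 scale. Within the 5 groups that held both kinds of array, 1291 genes (7.1%) were higher each time and 2400 (13.2%) lower each time. Counted by probe set, 607 of 45101 (1.35%) lay wholly above and 23 (0.051%) wholly below, 550 (1.22%) were 2-fold or more higher and 2 (0.00443%) 2-fold or more lower, and the mean was higher for 35.6% and lower for 64.4%. The balance of non-overlapping genes depended on pooling the days. In day 7 arrays alone 547 genes lay wholly above and 271 wholly below, and in day 30 arrays alone 1051 and 1159. Non-overlap is easier to reach with fewer arrays. All these counts and shares describe the contrast that made the classes and are not tests of it.

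The differences were larger in the day 30 groups, whose high rod arrays had the higher scores. The median difference of the 351 genes was 1.63 in BSS day 30, 1.26 in DEX day 30, 1.05 in TAA day 30, 0.71 in TAA day 7 and 0.56 in DEX day 7. The high rod array nearest to the low rod arrays was DEX day 7 replicate 1, the one with the lowest score of its class, for 223 of the 351 genes. The low rod array nearest to the high rod arrays was DEX day 30 replicate 2, the highest of its class, for 104 of them, and TAA day 7 replicate 1 for 55. Of the 351 genes, 186 differed by 2-fold or more and 69 by 4-fold or more, and a further 71 genes reached 2-fold with overlapping arrays. Of the 607 probe sets without overlap upward, 79 have no single gene symbol and were left unnamed.

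Outside the lists of rod genes and of genes shared by rods and cones, the 15 genes with the largest differences among those without overlap were mostly genes of photoreceptors and of neurons. Mir124-2hg, the host transcript of a copy of the neuronal microRNA miR-124, stood first. Its signal was 4.53 and 4.5 in BSS day 30 replicates 3 and 1, 4.09 in DEX day 30 replicate 3, 3.78 and 3.35 in TAA day 30 replicates 2 and 1, 2.98 in TAA day 7 replicate 3, and 2.39 and 2.18 in DEX day 7 replicates 1 and 2, against -2.28 to 0.08 (median -1.13) in low rod arrays. The difference of the means was 4.60, and the 8 high rod arrays followed the order of the rod score but for exchanges between neighbours.

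Rp1l1, which binds the microtubules of the photoreceptor axoneme, differed by 4.31, Pcare, an actin regulator at the photoreceptor cilium, by 3.64, Rgs9bp, which anchors the shut-off protein of transducin, by 3.61, and Mpp4, a scaffold of photoreceptor terminals, by 3.40. These 4 are photoreceptor genes although the lists did not hold them. Snap25, a SNARE protein of synaptic vesicle fusion, was at 1.68 to 5.13 (median 3.49) in high rod arrays and at -1.29 to 0.00 (median -0.94) in low rod arrays, a difference of 4.22. Cplx4 and Cplx3, the complexins of ribbon synapses, differed by 3.95 and 3.45. Chgb, a granin of secretory granules, differed by 3.97 and Cadps, which primes dense-core vesicles, by 3.03. Kcnj14, an inward rectifier potassium channel, differed by 3.79, and Nefl, the light neurofilament subunit, by 3.25. The remaining members were E130218I03Rik (4.02), Pdzph1 (3.31) and Tmem130 (3.07). Every one of the 15 was higher in all 5 groups that held both kinds of array, which the choice of the genes required.

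**Figure D2:**
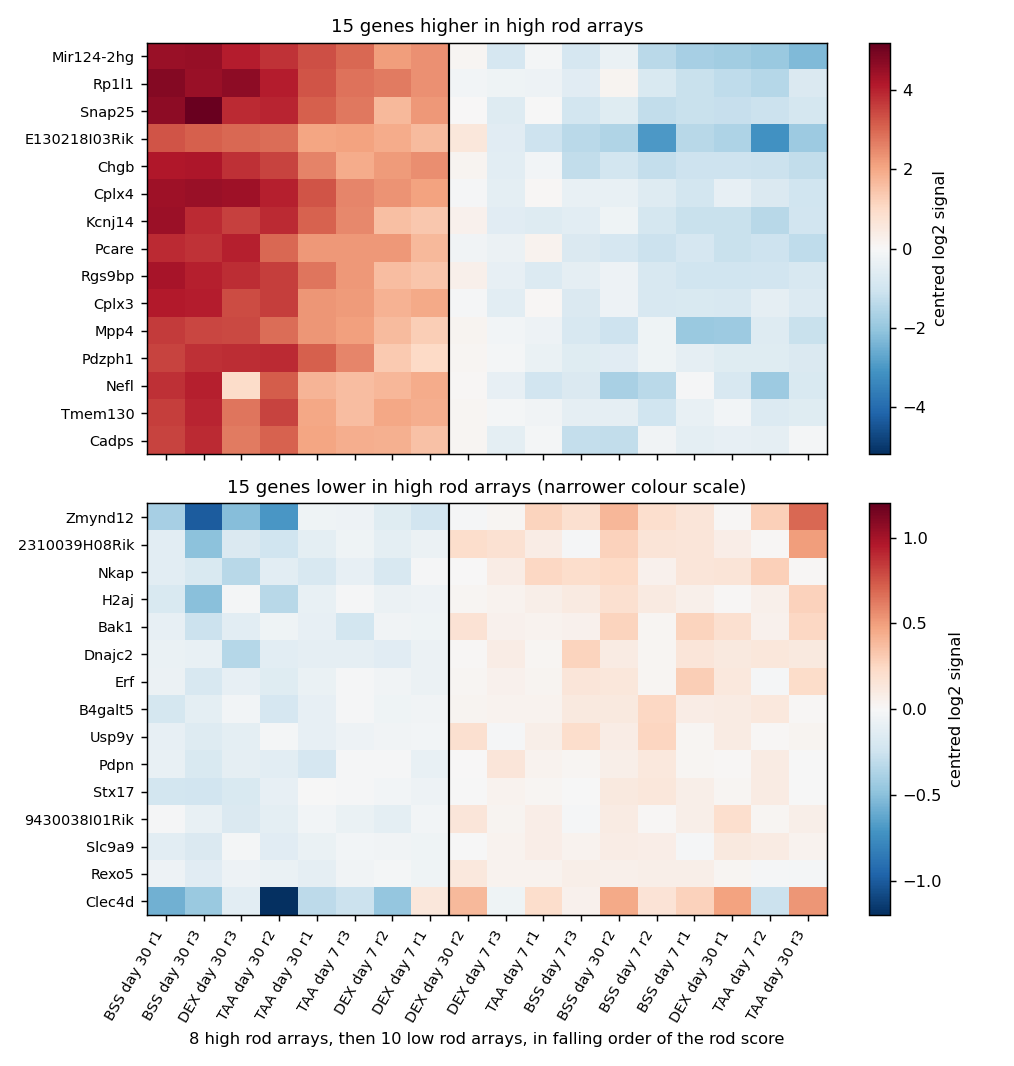
Heat map of centred log2 signal for the 15 genes named as higher (top) and the 15 named as lower (bottom, narrower colour scale). They are the widest outside the rod and photoreceptor lists without overlap and with 1 sign in 5 groups. Clec4d, which overlaps, was added. The 8 high rod arrays lie left of the black line and the 10 low rod arrays right of it. The upper genes fade with the rod score from left to right, Nefl is pale in DEX day 30 r3, and the lower genes differ by no more than 0.63 in the mean.

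The promoters of these genes were searched for the core motif bound by CRX, a homeodomain factor of photoreceptors, as TAATCC or, on the other strand, GGATTA. RefSeq promoters (GRCm38.p6, 250 bases before to 50 after the transcription start) were at hand for 12 of the 20 genes made up of the 5 rod markers and the 15 genes above, with 13 promoters in all, and 4 (30.8%) held the motif. For the 351 genes without overlap upward, 44 of 387 promoters (11.4%) held it, against 1105 of 18110 (6.1%) over the genes measured and 2320 of 32851 (7.06%) over all promoters in the table. For the 14 genes without overlap downward it was 0 of 14 promoters (0.0%). A match of these letters is a description and not a binding site. The 4 promoters are printed 5′ to 3′ on the strand of the gene because they are the members of the group that share it, with the motif in capitals. Counted from the start site, it begins at base -228 in Cnga1 (chr5:72642703-72643002, minus strand), -87 in Sag (chr1:87803430-87803729, plus strand), -18 in Pcare (chr17:71752856-71753155, minus strand) and -23 in Mpp4 (chr1:59161587-59161886, minus strand).
Cnga1: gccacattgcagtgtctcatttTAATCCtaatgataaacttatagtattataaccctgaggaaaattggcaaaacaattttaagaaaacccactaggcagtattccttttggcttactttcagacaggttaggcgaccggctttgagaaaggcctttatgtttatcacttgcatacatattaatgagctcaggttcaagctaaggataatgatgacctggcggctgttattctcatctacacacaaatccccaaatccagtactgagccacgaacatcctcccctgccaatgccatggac
Sag: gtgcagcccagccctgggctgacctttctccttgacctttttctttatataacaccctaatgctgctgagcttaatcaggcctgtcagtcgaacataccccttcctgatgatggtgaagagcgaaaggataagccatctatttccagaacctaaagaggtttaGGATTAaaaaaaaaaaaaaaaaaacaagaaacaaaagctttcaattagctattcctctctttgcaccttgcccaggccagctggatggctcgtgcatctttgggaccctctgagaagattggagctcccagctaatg
Pcare: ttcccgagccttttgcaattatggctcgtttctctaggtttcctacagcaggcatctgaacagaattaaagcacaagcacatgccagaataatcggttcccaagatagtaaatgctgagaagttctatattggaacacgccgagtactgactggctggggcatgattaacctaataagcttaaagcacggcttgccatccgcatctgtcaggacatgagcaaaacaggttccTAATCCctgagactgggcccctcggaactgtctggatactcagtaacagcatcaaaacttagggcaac
Mpp4: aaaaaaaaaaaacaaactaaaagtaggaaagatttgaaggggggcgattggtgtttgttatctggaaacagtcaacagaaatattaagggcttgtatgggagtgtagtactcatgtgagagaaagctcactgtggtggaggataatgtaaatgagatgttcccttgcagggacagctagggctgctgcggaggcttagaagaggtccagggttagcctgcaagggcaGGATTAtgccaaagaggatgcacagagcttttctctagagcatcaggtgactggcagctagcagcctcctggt

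Genes of each class of retinal cell that was listed were higher in high rod arrays, not those of rods alone. The mean signal of the list did not overlap between the classes in any of 10 lists, those of retinal cells, synapses, cilia and neuronal RNA binding. All 18 measured members of the rod list had the higher mean in high rod arrays, with a median difference of 2.89, and so had all 19 of the list shared by rods and cones, with a median of 2.09. The median over all genes was -0.05, with 33.9% higher and 1.93% without overlap upward. Rcvrn (recoverin, a calcium sensor of photoreceptors) differed by 4.76, Neurod1 (a transcription factor of photoreceptors and amacrine cells) by 4.55 and Guca1a (an activator of guanylate cyclase) by 4.08.

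Of 14 cone genes, 11 were higher and 3 lower, with a median of 0.88, and 4 did not overlap: Pde6h (2.73), Gnb3 (2.47), Opn1mw (2.23) and Arr3 (0.91), which encode a cone phosphodiesterase subunit, a transducin beta subunit of cones and bipolar cells, the green opsin and cone arrestin. Over all genes, 33.9% were higher and 1.93% did not overlap upward. Opn1mw was at 0.97 to 3.11 in high rod arrays and -0.85 to 0.01 in low rod arrays. Mouse cones carry the short-wavelength opsin, Opn1sw, and the green opsin in shares that change from the upper to the lower retina. Opn1sw did not follow the rod score as Opn1mw did. It was at 3.64 and 1.95 in BSS day 30 replicates 1 and 3 and at 2.00 and 1.23 in TAA day 30 replicates 2 and 1, but at 0.13 in DEX day 30 replicate 3, -0.01 in TAA day 7 replicate 3 and 0.09 and -0.26 in DEX day 7 replicates 2 and 1, against -0.23 to 0.27 in low rod arrays. DEX day 30 replicate 3 thus had the highest Opn1mw of all arrays, 3.11, and an Opn1sw value inside the range of the low rod arrays. Gngt2 (-0.03), Rxrg (-0.04) and Thrb (-0.16) were the members with the lower mean.

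Of 14 bipolar cell genes, 12 were higher and 2 lower, with a median of 0.49, and 6 did not overlap. The shares over all genes were 33.9% higher and 1.93% without overlap upward. Isl1, a transcription factor of bipolar, amacrine and ganglion cells, was at 1.16 to 3.21 (median 2.2) in high rod arrays and -0.93 to -0.09 (median -0.39) in low rod arrays, a difference of 2.59. Cabp5 and Pcp2, both of bipolar cells, differed by 1.76 and 1.46, and Gng13, the G protein gamma subunit of ON bipolar cells, by 1.30. Among 16 amacrine and horizontal cell genes, 12 were higher and 4 lower, with a median of 0.37, and 5 did not overlap. Gad1, which makes GABA, was at 1.55 to 3.21 (median 2.18) in high rod arrays and -0.76 to 0.00 (median -0.54) in low rod arrays. It differed by 2.74, the calcium-binding protein Calb2 by 1.99, the GABA vesicle transporter Slc32a1 by 0.65, and Chat, which makes acetylcholine in starburst cells, by -0.13.

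The ganglion cell list also differed among the high rod arrays themselves. Of its 14 members 12 were higher and 2 lower, with a median of 0.41 and 4 without overlap. Of all genes, 33.9% were higher and 1.93% without overlap upward. The mean of the list was 1.05 and 0.91 in BSS day 30 replicates 3 and 1 and 0.78 in TAA day 30 replicate 2, but 0.10 in DEX day 30 replicate 3, whose rod score of 4.02 lay between theirs. Nefl was at 4.05, 3.78 and 3.15 in those 3 arrays and at 0.96 in DEX day 30 replicate 3, the lowest value of the 8. Nefm, the medium neurofilament subunit, was at 2.57, 2.21 and 1.92 and at -0.55. Slc17a6, the vesicular glutamate transporter of ganglion cells, was at 3.07, 2.80 and 1.78 and at 0.17. The ganglion list of this array, at 0.10, was still above all low rod arrays, the highest of which was at -0.001. In the same array the lists of bipolar cells, at 0.71, and of amacrine and horizontal cells, at 0.38, also stayed above all low rod arrays. This array was singled out after its values had been seen, and no cause was tested.

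**Figure D3:**
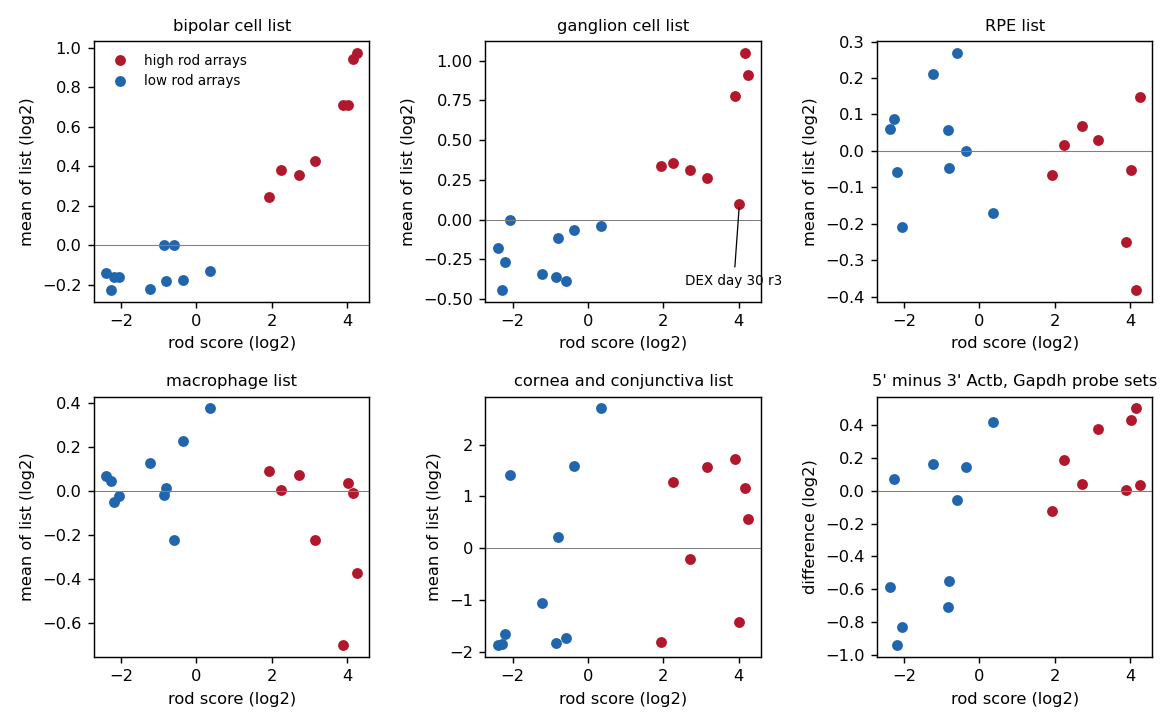
Mean centred log2 signal of 5 gene lists and the 5′ minus 3′ difference of the Actb and Gapdh control probe sets against the rod score, 1 point per array (red, 8 high rod arrays; blue, 10 low rod arrays). The bipolar list climbs with the score, the ganglion list is highest in 3 arrays with scores of 3.89 to 4.26 but at 0.10 in DEX day 30 r3, the cornea and conjunctiva list does not separate the classes, and the 5 arrays below -0.5 in the last panel are all low rod arrays.

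The Mueller glia and astrocyte list was uneven. Of 15 members 11 were higher and 4 lower, with a median of 0.26, which was 0.08 without the 5 arrays of weak 5′ signal. The share of all genes that were higher was 33.9%. Crb1, a polarity protein at the outer limiting membrane, differed by 2.28 (1.12 to 2.40 in high rod arrays and -0.95 to -0.02 in low rod arrays), Gpr37 by 1.62 and Aqp4, the water channel of glial endfeet, by 0.94, all without overlap. Glul, the glutamine synthetase of Mueller cells, differed by 0.14, and the astrocyte genes S100b and Gfap by -0.28 and -0.37.

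Genes of transmitter release were among the most separated. For comparison, 33.9% of all genes had the higher mean and 1.93% did not overlap upward. All 19 measured genes of synaptic vesicles and ribbons had the higher mean in high rod arrays, 10 of them without overlap, and the median was 0.95. Beside Snap25 and the complexins, these were Cacna2d4 (2.35) and Cacna1f (0.95), subunits of the calcium channel of photoreceptor terminals, Cabp4 (2.21), which binds that channel, the vesicle proteins Syt1 (1.35) and Syp (1.31), and the active zone proteins Rims2 (1.16) and Pclo (0.80). Other members of the list were close to 0, with the membrane fusion gene Vamp2 at 0.12, the coregulator Ctbp2 at 0.10 and the active zone gene Bsn at 0.06. Of 11 genes of neuronal RNA-binding proteins 9 were higher, with a median of 0.16 and 3 without overlap: Celf4 (2.07), Ptbp2 (0.95) and Elavl2 (0.78). Of 18 cilium genes 15 were higher, with a median of 0.14, and Pcdh15 (1.04), a cadherin of photoreceptors and hair cells, was the member without overlap.

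Of 20 genes of glycolysis, lactate and creatine 19 were higher in high rod arrays, with a median of 0.39, and 0.25 without the arrays of weak 5′ signal. Over all genes the share that was higher was 33.9%. Eno2, the enolase of neurons, was at 0.49 to 2.15 in high rod arrays and -0.77 to 0.13 in low rod arrays and differed by 1.60. Hk2, the hexokinase of photoreceptors, differed by 1.02 with overlapping arrays, and Slc2a3, the neuronal glucose transporter, by 0.60 without overlap. Of 20 genes of mitochondrial respiration 11 were higher and 9 lower, with a median of 0.01, which was -0.06 without the arrays of weak 5′ signal. The largest difference of the list was 0.28 for Atp5b, a subunit of ATP synthase, whose mean was 0.06 in high rod arrays, -0.51 in the 5 low rod arrays of weak 5′ signal and 0.06 in the other 5 low rod arrays.

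**Figure D4:**
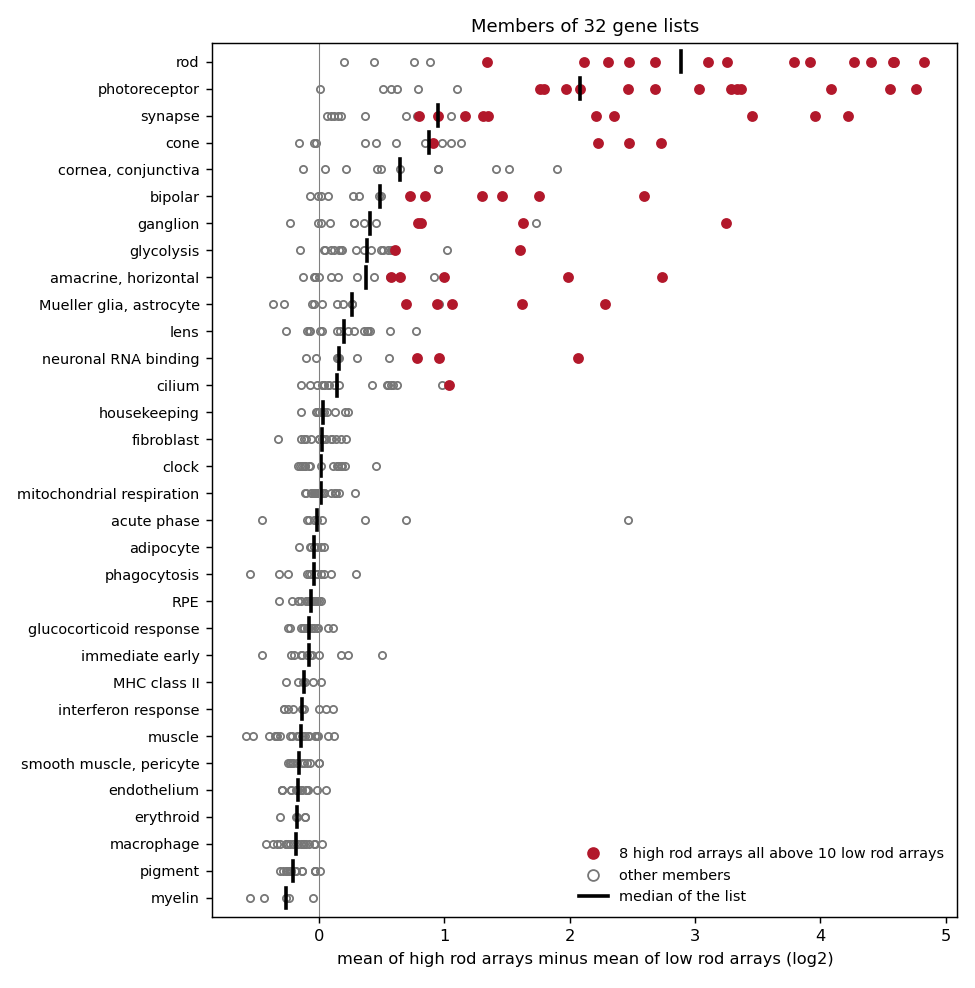
Difference of the class means (high rod minus low rod arrays, log2) for each measured member of 32 gene lists, with lists in order of their median (black bar). Filled red circles mark members whose 8 high rod arrays all lie above the 10 low rod arrays, and they occur in the lists of retinal neurons, glia, synapses, RNA binding, cilium and glycolysis.

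The labelled tissue was checked with RPE genes, which differed little. Of 19 RPE genes 18 had the lower mean in high rod arrays, 0 without overlap, but the median was -0.06, against -0.05 over all genes. The lower mean was also found for 66.1% of all genes. Rpe65, the isomerase of the visual cycle, lay at -0.25 to 0.14 in high rod arrays and -0.22 to 0.26 in low rod arrays, and its means differed by -0.04. Rlbp1 (-0.03), Lrat (-0.08), Rgr (-0.07) and Best1 (-0.14), which carry, store or isomerise retinoids or, for Best1, conduct chloride, overlapped as widely. Mertk, the receptor for the uptake of shed outer segments, had the widest difference of the list, -0.32, and was at -0.73 to 0.15 in high rod arrays and -0.26 to 0.52 in low rod arrays. The mean of the list was lowest in BSS day 30 replicate 3 and TAA day 30 replicate 2, at -0.38 and -0.25, but 0.15 in BSS day 30 replicate 1, the array with the highest rod score, against -0.21 to 0.27 in low rod arrays. Without the 5 arrays of weak 5′ signal the median of the RPE genes was -0.11.

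Genes of pigment were lower by a little more. Of 16 genes of melanin synthesis and melanocytes 15 were lower, with a median of -0.21, and the widest were Mitf (-0.31), the master transcription factor of pigment cells, Slc45a2 (-0.29), a melanosome transporter, and Ednrb and Rab27a (both -0.26). In day 7 arrays alone the median was -0.016. For 15 endothelial genes the median was -0.17 with 14 lower, for 12 smooth muscle and pericyte genes -0.16 with 11 lower, for 18 macrophage and microglia genes -0.19 with 17 lower, for 5 red cell genes -0.17 with all 5 lower, and for 22 skeletal muscle genes -0.15 with 20 lower. In day 7 arrays alone the median was 0.08 for the endothelial and 0.02 for the macrophage list. Without BSS day 30 replicate 1 the endothelial median was -0.05, and without TAA day 30 replicate 2 the macrophage median was -0.11. None of the members of these lists had arrays without overlap, and 66.1% of all genes had the lower mean. Tnnc1 (-0.58), the troponin C of slow muscle, Cd36 (-0.55), a scavenger receptor, Aif1 (-0.43) and Cd68 (-0.37), both of macrophages, and Sox17 (-0.30), of arterial endothelium, were the widest of their lists, and Tnnc1 ran from -2.58 to 1.46 within the high rod arrays. The mean of the macrophage list was low in a few arrays, at -0.70 in TAA day 30 replicate 2, -0.37 in BSS day 30 replicate 1 and -0.22 in TAA day 30 replicate 1, against -0.01 to 0.09 in the other 5 high rod arrays and -0.22 to 0.38 in low rod arrays. Aif1 was at -1.23, -0.61 and -0.52 in the same 3 arrays. The 15 genes of stroma had a median of 0.02.

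The 5 myelin genes had a median of -0.26, with all 5 lower and 0 without overlap, and of -0.39 to -0.15 with each array left out in turn (-0.15 without BSS day 7 replicate 1, -0.39 without DEX day 7 replicate 1). Of all genes, 66.1% had the lower mean. Mobp, a protein of oligodendrocyte myelin, was at 1.29 in BSS day 30 replicate 3 and 1.12 in DEX day 7 replicate 1 but at -1.17 to -0.01 in the other 6 high rod arrays, against -1.04 to 1.62 (median 0.47) in low rod arrays. Its values therefore did not follow the rod score. Mouse retina itself has no myelin, which begins in the optic nerve behind the eye.

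The genes that separated downward were few and their differences small. Zmynd12, a zinc finger protein of little known function, was at -1.0 to -0.06 (median -0.32) in high rod arrays and -0.01 to 0.69 (median 0.20) in low rod arrays, a difference of -0.61. It was followed by 2310039H08Rik (-0.34), Nkap (-0.30), a transcriptional repressor of the Notch pathway, the histone H2aj (-0.26), the apoptosis effector Bak1 (-0.26), the ribosome-associated chaperone Dnajc2 (-0.24), the Ets repressor Erf (-0.19) and the galactosyltransferase B4galt5 (-0.19). Usp9y (-0.18), Pdpn (-0.16), Stx17 (-0.16), 9430038I01Rik (-0.15), Slc9a9 (-0.14) and Rexo5 (-0.12) completed the 14. None of them is in a marker list of a cell type, and the classes nearly touched in some, with Nkap at -0.01 in the highest high rod array and 0.00 in the lowest low rod array. Clec4d, a lectin of macrophages and neutrophils, was added as the 15th because it was lower in all 5 groups, with a difference of -0.63 and overlapping arrays, and it too was lowest in TAA day 30 replicate 2, at -1.20.

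Tissues from the front of the eye did not split the arrays in the same way. Of all genes, 33.9% had the higher mean in high rod arrays. The cornea and conjunctiva list had a median of 0.65, with 10 of 11 members higher, but 0 without overlap, and a median of 0.32 without the 5 arrays of weak 5′ signal and of -0.17 in day 7 arrays alone. Krt5, a keratin of basal epithelium, was at 2.90, 2.17, 1.51, 1.45 and 1.42 in 5 high rod arrays and at -0.52, -1.87 and -3.36 in the other 3, and 2.88, 1.96, 1.87 and 0.52 in 4 low rod arrays against -3.40 to -1.92 in the other 6. High and low values thus occurred in both classes. The lens list had a median of 0.20 with 12 of 16 higher, which was 0.05 within groups and -0.08 without BSS day 30 replicate 3. Its mean was 2.56 in BSS day 30 replicate 3, against -1.04 to 0.87 in the other high rod arrays and -1.13 to 0.91 in low rod arrays.

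Lcn2, a lipocalin of the acute phase response, differed by 2.47 between the classes with wide overlap. It was at 4.89 in DEX day 30 replicate 3, 2.49 and -0.85 in DEX day 7 replicates 2 and 1, 2.64 in TAA day 7 replicate 3, 1.74 and 1.45 in TAA day 30 replicates 1 and 2, and 4.62 and -1.17 in BSS day 30 replicates 3 and 1, against -1.81 to 2.91 (median -1.38) in low rod arrays. The low rod arrays above 0 were TAA day 7 replicates 1 and 2, at 2.91 and 2.01, and DEX day 30 replicate 2, at 0.84. Without the 5 arrays of weak 5′ signal the difference was 1.32. Cp, ceruloplasmin, differed by 0.69, while the median of the 9 acute phase genes was -0.02. The median was -0.08 for 14 glucocorticoid response genes, -0.14 for 9 interferon genes, -0.12 for 6 MHC class II genes, -0.08 for 12 immediate early genes, -0.04 for 7 fat cell genes, -0.04 for 12 genes of outer segment uptake and the lysosome, 0.01 for 17 clock genes and 0.03 for 10 common reference genes, 0 without overlap in each. Without the 5 arrays of weak 5′ signal these medians were -0.15 for the glucocorticoid response, -0.21 for interferon, -0.25 for immediate early genes, -0.11 for outer segment uptake and the lysosome, -0.15 for the clock and -0.02 for the common reference genes.

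The day and the steroid come from the labels and not from the rod signal, so these comparisons were tested with limma, once with the rod score as a term and once without. With the rod score, 86 of 45101 probe sets (0.191%) passed an adjusted p of 0.05 between day 30 and day 7, 27 higher and 59 lower at day 30. Without it there were 180 (0.399%), 41 higher and 139 lower. The fits shared 70 probe sets, 16 were called only with the rod score, and 110 only without it, where the adjusted p with the score ran from 0.05 to 0.115. The count depended on single arrays and lay between 23 and 150 with each left out in turn, at 23 without TAA day 7 replicate 3 and 150 without BSS day 30 replicate 3. The median residual SD was 0.149 with the score and 0.159 without.

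The clock led both fits. Arntl, the Bmal1 gene of the clock's positive limb, was 1.68 ± 0.10 (log2, SE) higher at day 30 with the rod score (adjusted p = 2.39e-06), and its partner Npas2 was 1.61 ± 0.16 higher (adjusted p = 0.000576). The repressors Per3 (-0.82, adjusted p = 0.000478), Per2 (-1.28, adjusted p = 0.00513) and Per1 (-0.73, adjusted p = 0.0055) were lower, as were Ciart (-0.66, adjusted p = 0.00504), a repressor of Bmal1, and the kinase Wee1 (-0.60, adjusted p = 0.000987). Outside the clock, Inmt, an indole methyltransferase, fell by 1.08, Fibin by 0.87, the prostaglandin synthase Ptgs2 by 1.06 and the lubricin gene Prg4 by 1.46. Of 17 clock genes, 13 were called on at least 1 probe set with the score and 12 without. By probe set it was 15 of 35 in each fit, against 0.191% of all probe sets with the score and 0.399% without. The clock list was chosen with earlier results of these data known, so this is a description. Cry2 (-0.30, adjusted p = 0.0224), Rora (-0.46, adjusted p = 0.0223) and Hlf (-0.43, adjusted p = 0.0223) passed with the score, against adjusted p of 0.20, 0.20 and 0.255 without it. Samples were collected in the morning per the study's methods, and the labels give no clock time.

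The 351 genes without overlap were selected on the rod signal, so a fit with the rod score takes up much of their difference between arrays by construction. At the adjusted p in limma, 0 of the called probe sets with a gene symbol belonged to them in either fit. A looser threshold was an unadjusted limma p no higher than 0.05 together with a change of at least 1.5-fold. By it, 432 probe sets (0.958%) differed between the days without a rod term, and 134 of them belonged to the 351 genes without overlap. With the score 139 probe sets (0.308%) did, of which 2 belonged to those genes. Between a steroid and BSS the count of such probe sets did not drop. The 351 genes have 724 probe sets. For DEX at day 7, 6 of these were called with the score and 0 without it. Over all probe sets it was 52 (0.115%) and 47 (0.104%). For TAA at day 7 it was 5 and 1, against 210 (0.466%) and 204 (0.452%) over all. For DEX at day 30 it was 38 and 34, against 143 (0.317%) and 215 (0.477%). For TAA at day 30 it was 9 and 3, against 98 (0.217%) and 79 (0.175%). The median day difference of the 724 probe sets was 0.47 without the score and 0.14 with it, against -0.02 and 0.00 over all probe sets. Syt7, a synaptotagmin, and Ppef2, a phosphatase of photoreceptors, were called only with the score, at 0.49 ± 0.08 (adjusted p = 0.0295) and 0.76 ± 0.14 (adjusted p = 0.0416), against no call without it (0.75 ± 0.18, adjusted p = 0.0912, and 1.25 ± 0.34, adjusted p = 0.128).

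Between DEX and BSS at day 7, 2 of 3 arrays against 0 of 3 arrays were high in rod signal. On its more variable probe set, Snap25 was at 2.59, 2.95 and -0.98 in DEX and at -2.34, -2.35 and -1.76 in BSS arrays. The limma difference was 3.67 ± 1.98 (SE) without a rod term and 0.88 ± 0.34 with it, with an adjusted p of 1 in both. Neurod1 went with it, at 3.26 ± 1.90 and 0.57 ± 0.27. For Rcvrn the difference was 2.79 ± 1.87 without the score and 0.12 ± 0.16 with it. For Guca1a it was 2.15 ± 1.69 and -0.25 ± 0.20. Pde6g, the inhibitory subunit of rod phosphodiesterase, Tulp1, a photoreceptor transport protein, Fscn2, an actin bundler of outer segments, and Rdh12, a retinol dehydrogenase of photoreceptors, had differences of 1.36 to 1.94 without the score and of -0.31 to -0.26 with it. The sign was turned in 5 of these 8 genes once the score was in the fit. The score is itself built from rod genes, so that the photoreceptor genes lose most of their difference is a property of the fit. Other genes did not share 1 pattern. Grik1, a kainate receptor subunit, and Myh8, a myosin of developing muscle, were at -0.94 ± 0.28 and -0.88 ± 0.26 without the score and at -0.74 ± 0.26 and -0.75 ± 0.26 with it. Lcn2 was at 2.02 ± 1.62 without the score and 0.42 ± 1.26 with it, Arntl at 0.34 ± 0.25 and 0.07 ± 0.18, and Clock at 0.07 ± 0.17 and -0.08 ± 0.14. The adjusted p was 1 for all of them in both fits.

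**Figure D5:**
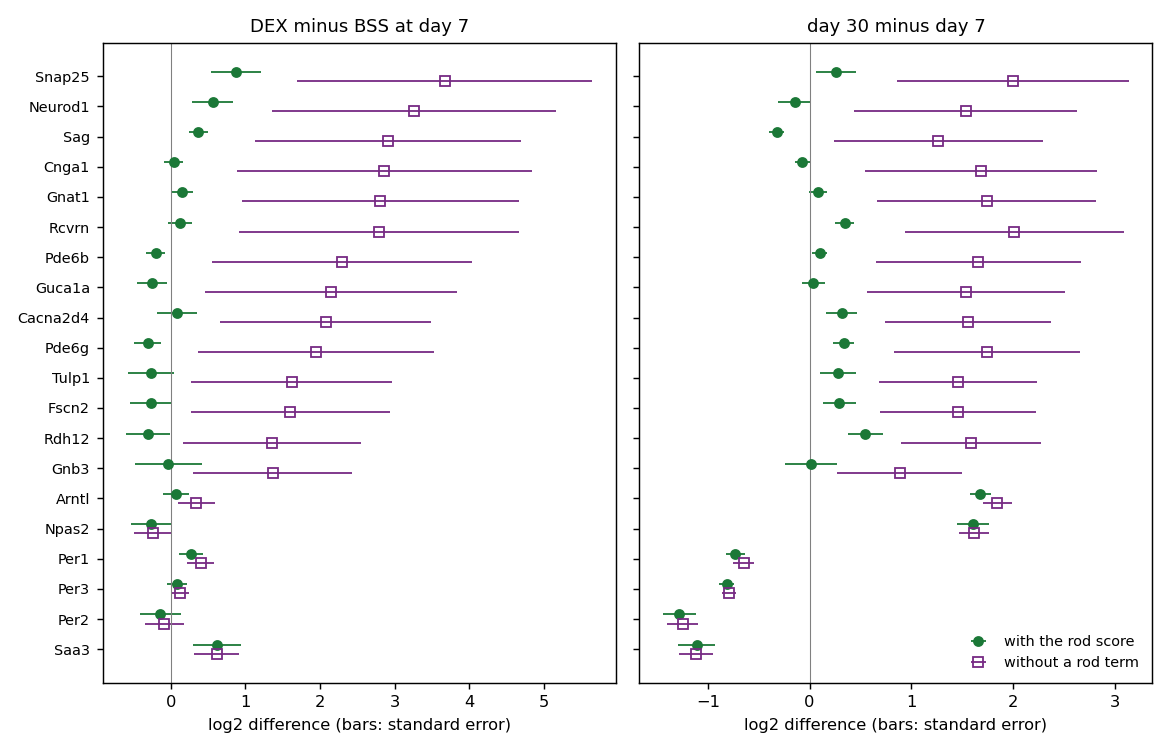
Limma log2 differences with standard errors for 14 retinal genes, 5 clock genes and Saa3, between DEX and BSS at day 7 (left) and between day 30 and day 7 (right), with the rod score in the fit (green circles) and without a rod term (purple squares). Without the term the retinal genes lie right of 0 with wide bars. With it they lie closer to 0, although Snap25 (0.88) and Neurod1 (0.57) in the left panel stay more than 2 standard errors above 0. So do Rdh12 (0.55), Rcvrn (0.35), Pde6g (0.34) and Cacna2d4 (0.31) in the right panel. Sag (0.37 in the left panel, -0.32 in the right) is part of the score, so its remaining difference is tied to the fit and is not read. None of these differences passed the adjusted p in limma. Arntl, Npas2 and the Per genes hardly move in the day comparison.

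No probe set passed an adjusted p of 0.05 in limma between DEX and BSS at day 7, DEX and BSS at day 30 or TAA and BSS at day 30, with or without the rod score, and 1 did between TAA and BSS at day 7 (0.00222%). Of 45101 probe sets, 1001, 1881 and 1476 had an unadjusted limma p no higher than 0.05 with the score, and 1004, 1910 and 1186 without it. Each count is below the share of 0.05 that this threshold passes on average where nothing differs. The single call was Saa3, an acute phase serum amyloid, at 2.84, 1.92 and 2.73 in TAA and 0.13, -0.08 and -0.49 in BSS arrays, where the high rod array was the one at 2.73. Its difference was 2.65 ± 0.30 with the score (adjusted p = 0.0139) and 2.64 ± 0.30 without it (adjusted p = 0.00836). The call was lost when BSS day 7 replicate 2, BSS day 7 replicate 3 or TAA day 7 replicate 1 was left out. By the looser threshold, 52 probe sets (0.115%) differed between DEX and BSS at day 7 with the score and 47 (0.104%) without it, with 19 in common. Between TAA and BSS at day 7 there were 210 (0.466%) and 204 (0.452%), with 170 in common. Between DEX and BSS at day 30 there were 143 (0.317%) and 215 (0.477%), with 110 in common, and between TAA and BSS at day 30 there were 98 (0.217%) and 79 (0.175%), with 59 in common. Grm7, a metabotropic glutamate receptor, had a TAA minus BSS difference at day 30 of -0.68 ± 0.20 with the score and -0.75 ± 0.24 without it, with an adjusted p of 1 in both. The steroid comparisons share the BSS arrays of a day, and each difference rests on 3 arrays a group. The error behind the p-values was pooled over the 6 groups and moderated by that of the other probe sets. It is therefore not the spread of the 2 compared groups alone.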

How the data were processed

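Total RNA from the RPE and choroid of 18 mouse samples was hybridised to Affymetrix mouse genome GeneChip arrays. The labels and the study's methods name different labelling kits. The authors summarised the arrays by robust multi-array averaging (RMA) and set each probe set to its median over all samples, and the deposited values are centred log2 signals of 45101 probe sets. The depth of an array is its signal over background, which centred values do not show, so the number of arrays limits the precision. No other column of sample values was present and no array was left out.

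GEO's platform annotation gave 1 gene symbol for 34958 probe sets, several for 932 and none for 9211, and 34754 matched RefSeq genes (GRCm38.p6). Probe sets of 1 gene were averaged, which gave 18194 genes. High minus low rod differences are class means without a test, described by overlap, fold and sign in 5 groups. Label comparisons used limma 3.58.1 in R 4.3.3 (6 group means, the rod score as covariate, empirical Bayes, Benjamini-Hochberg adjustment over 45101 probe sets), and were also run without the rod term. For a gene with several probe sets, limma values are those of the probe set with the largest SD. Scripts were tested on simulated data. The members and the 32 gene lists were chosen with earlier results of these data known. Named genes were the 5 rod markers, the 15 widest non-overlapping genes in each direction outside the rod lists with 1 sign in 5 groups (filled from overlapping genes), the 4 widest members of a list and all RPE, cone, synapse and muscle members, genes the study names, and the day calls of smallest adjusted p or called in 1 fit alone. Slc32a1, Aqp4, Chat, Gfap, Glul and S100b, named outside this rule, were chosen after their values were seen. Alternatives were the difference within groups, medians of arrays, the most variable probe set, array median centring, each day alone, each array left out, and in limma the rod class, the whole rod list, a replicate block, array weights and a trended robust prior. Alternatives without 5 arrays of weak 5′ signal, or with that signal as a covariate, were chosen after seeing the data.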

Additional observations from a re-analysis of the deposited data

Results flagged for a closer look

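Among 64 pairs of a gene list and a rod class, 4 held an array that stood far from the others of its class by Dixon's criterion, where chance alone gives about 1 in 20. In high rod arrays, the mean of the fat cell list was 1.40 in DEX day 7 replicate 1, against -0.27 to 0.47 in the other 7. In low rod arrays, the mean of the Mueller glia and astrocyte list was -0.73 in BSS day 30 replicate 2, against -0.34 to 0.00 in the other 9, the mean of the endothelial list was -0.31 in BSS day 7 replicate 1, against 0.00 to 0.26, and the mean of the glucocorticoid response list was 0.42 in TAA day 7 replicate 1, against -0.10 to 0.13. BSS day 30 replicate 2 and BSS day 7 replicate 1 are 2 of the 5 arrays with weak 5′ signal, at -0.71 and -0.83, and the part of RNA quality was not tested.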

How the results depend on the processing

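None of the differences of the 15 genes named as higher and the 15 as lower was reversed in the alternatives run. The genes were chosen for non-overlap and for 1 sign in 5 groups. For genes without overlap this fixes the sign in any subset of the arrays, in medians of arrays and within groups. Those alternatives could not reverse it. The 70 probe sets called between the days in both limma fits had the same sign in both. For the other limma alternatives only the counts of calls were compared. Of 228 counts, 800 list medians and 750 named gene differences, 38, 16 and 26 moved, and the causes were not tested. Non-overlap is by its definition easier to reach with fewer arrays, and the part of this in the counts was not tested either. The counts of non-overlapping genes (351 higher, 14 lower) were 615 and 172 within groups, 547 and 271 in day 7 arrays, 1051 and 1159 in day 30 arrays, and 79 lower without the 5 arrays of weak 5′ signal, and medians of arrays give no such count. With each array left out they ran from 351 to 474 and from 15 to 37, with 37 lower without DEX day 7 replicate 1, 27 without DEX day 7 replicate 2 and 35 without DEX day 30 replicate 2. The 2-fold counts (257 higher, 0 lower) were 409 and 1 with the most variable probe set, 127 and 4 in day 7 arrays, 397 and 4 in day 30 arrays, 1 lower with medians and without the weak 5′ arrays, and 220 to 313 and 0 to 1 with each array left out. With the most variable probe set the list medians were 3.85 for rods, 3.05 for photoreceptors, 0.71 for amacrine and horizontal cells, 1.81 for synapses and 0.48 for neuronal RNA binding. In day 7 arrays they were 2.19, 1.32, 0.12 and 0.49 for the first 4 of these, 0.29 for cones, 0.21 for bipolar cells, 0.14 for glycolysis and -0.016 for pigment, and in day 30 arrays 0.54 for amacrine and horizontal cells and 0.57 for glycolysis. The clock median was -0.15 without the weak 5′ arrays, and the sign of the list median changed in 12 of 25 alternatives for acute phase, 11 for clock, 5 for stroma, 4 for fat cells, 3 for lens, 2 for respiration and 1 each for cornea and conjunctiva, endothelium, macrophages, MHC class II, outer segment uptake, immediate early and common reference genes. The cornea and conjunctiva median ran from 0.51 to 1.24 with each array left out, at 1.24 without DEX day 30 replicate 2. The 86 day calls were 180 with no rod term, 194 with the rod class, 73 with the whole rod list, 186 with array weights, 109 with the trended prior, 392 with the 5′ signal in place of the score and 105 beside it. They ran from 23 to 150 with each array left out, at 23 without TAA day 7 replicate 3, 24 without TAA day 30 replicate 3, 29 without DEX day 7 replicate 1, 39 without DEX day 7 replicate 2, 43 without DEX day 30 replicate 1, 47 without TAA day 30 replicate 2, 51 without BSS day 7 replicate 3 and 150 without BSS day 30 replicate 3. With the replicate block there were 59 day calls, and 0 calls in place of 1 between TAA and BSS at day 7, where Saa3 had an adjusted p of 0.0628. Same-numbered arrays of different groups did not deviate together (mean r of -0.07 over 45 pairs, against 0.04 over 90 pairs of other numbers), so the number is taken only as a name. The Saa3 call was also lost without BSS day 7 replicate 2, BSS day 7 replicate 3 or TAA day 7 replicate 1, and the comparison gave 0 to 3 calls with each array left out, 3 without TAA day 7 replicate 3. At day 30, leaving out BSS replicate 2 gave 9 calls for DEX and 3 for TAA, within ranges of 0 to 9 and 0 to 3, and for DEX at day 7 the range was 0 to 0. With centred values, the distance of a signal from background is unknown, so small differences of dim probe sets cannot be judged.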
